A study of Mus musculus with 2 samples.

Results

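The genes described here encode, in the nucleus, the protein subunits of the 5 complexes of the mitochondrial respiratory chain and ATP synthase. They were chosen by name, as symbols beginning Nduf followed by a subunit letter and number, Sdha to Sdhd, Uqcr, Cox4 to Cox8 or Atp5. This gave 83 of the 33696 genes in the files, after 2 of the 85 matching symbols (Cox6a2 and Cox5b-ps) were left out by name. Complex I had 37 members, complex II 4, complex III 8, complex IV 17 and complex V 17, with Ndufa4 counted in complex I by its name. No measured value was used to choose them.

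The study profiled single cells of solid tumours from the ID8 mouse model of ovarian cancer. ID8 is a cell line derived from mouse ovarian surface epithelium that grows in the peritoneal cavity of mice with an intact immune system. The chemoresistant library came from tumours given cisplatin, a platinum compound that damages DNA by crosslinking it, and the primary library from treatment naïve tumours. Both were made from pooled suspensions of digested tumours, and the number, strain and age of the mice, the cisplatin dose and the time after treatment are not given in the sources used here. With 1 library for each condition there was no replicate and no test of the condition, so that differences between the conditions cannot be told apart from differences between these libraries. All intervals below are 95% intervals that cover counting error only.

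The respiratory chain passes electrons from NADH (complex I) and succinate (complex II) through ubiquinone to complex III, through cytochrome c to complex IV, and on to oxygen. Complexes I, III and IV pump protons, and complex V (ATP synthase) uses the resulting gradient to make ATP. Each complex except complex II joins nuclear-encoded subunits to a few subunits encoded by mitochondrial DNA. Transcription of the nuclear genes is commonly linked to the factors NRF1, the ETS factor GABP (NRF2), YY1 and the oestrogen-related receptors.

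Promoter windows of 300 bases, running from 250 bases before to 50 after a gene's annotated start, were available from RefSeq (GRCm38.p6) for 69 of the 83 members. Exact words for these factors were searched on both strands. The NRF1 word GCGCATGCGC was found in 5 of the 69 members (7.25%), against 1.07% of all 27025 genes with a window. The ETS word CCGGAAGT was found in 5 (7.25%), against 4.31% of all genes. The YY1 word AAGATGGCG was found in 7 (10.1%), against 1.64%, and the word TCAAGGTCA of the oestrogen-related receptors in 2 (2.90%), against 0.466%. The words do not contain one another.

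Windows are printed for complexes I, III, IV and V to show what these matches look like. Only members whose window held one of these words were considered. Of these, the one with the highest ratio between the libraries in tumour cells was taken in each complex. Each window is written 5′ to 3′ on the gene's own strand, with the matched word in capitals. Ndufs6, an accessory subunit of complex I, has its window at chr13:73328433-73328732 on the minus strand, with the YY1 word 34 bases after the start. Uqcrh, the hinge protein of complex III, has its window at chr4:116075021-116075320 on the minus strand, with the ETS word as its reverse complement. Cox8a, subunit 8A of complex IV, has its window at chr19:7217567-7217866 on the minus strand, with the reverse complement of the ETS word at 2 places. Atp5g2, a gene for subunit c of ATP synthase, has its window at chr15:102670998-102671297 on the minus strand, with the NRF1 word 42 bases before the start.
Ndufs6: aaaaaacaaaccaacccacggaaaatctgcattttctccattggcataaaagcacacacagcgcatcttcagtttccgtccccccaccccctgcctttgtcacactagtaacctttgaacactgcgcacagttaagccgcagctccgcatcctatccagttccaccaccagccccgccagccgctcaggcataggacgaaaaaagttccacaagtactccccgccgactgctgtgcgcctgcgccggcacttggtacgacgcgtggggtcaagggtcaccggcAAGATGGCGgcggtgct
Uqcrh: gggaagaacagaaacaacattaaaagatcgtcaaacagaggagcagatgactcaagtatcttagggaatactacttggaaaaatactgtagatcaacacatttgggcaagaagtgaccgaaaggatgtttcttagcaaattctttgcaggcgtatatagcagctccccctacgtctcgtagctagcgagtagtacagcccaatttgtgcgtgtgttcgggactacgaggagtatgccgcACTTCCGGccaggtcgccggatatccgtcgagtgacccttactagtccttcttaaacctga
Cox8a: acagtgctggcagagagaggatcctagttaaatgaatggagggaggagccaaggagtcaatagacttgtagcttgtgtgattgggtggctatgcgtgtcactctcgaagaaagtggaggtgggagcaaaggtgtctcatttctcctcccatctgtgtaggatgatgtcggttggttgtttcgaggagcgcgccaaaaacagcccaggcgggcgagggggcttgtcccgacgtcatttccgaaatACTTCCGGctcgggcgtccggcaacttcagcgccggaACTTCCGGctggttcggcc
Atp5g2: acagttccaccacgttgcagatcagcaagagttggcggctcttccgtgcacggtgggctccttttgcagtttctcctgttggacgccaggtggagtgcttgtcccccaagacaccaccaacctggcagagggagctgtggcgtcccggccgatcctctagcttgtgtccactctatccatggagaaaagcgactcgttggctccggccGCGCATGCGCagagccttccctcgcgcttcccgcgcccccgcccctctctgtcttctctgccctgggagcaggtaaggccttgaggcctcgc

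Among members tested in tumour cells, those with a word and those without it overlapped in their ratio between the libraries. The median log2 ratio was 0.00 for the 5 members with the NRF1 word (-0.17 to 0.64) and 0.25 for the 61 without it. It was 0.24 for the 5 with the ETS word, against 0.25 for the 61 without. It was 0.19 for the 7 with the YY1 word, against 0.25 for the 59 without. The 2 members with the word of the oestrogen-related receptors had a median of 0.32, against 0.24 for the 64 without. These are descriptions of letters in 300 bases and show no binding.

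The chemoresistant matrix held 16390 barcodes and 158118781 UMIs, and the primary matrix 14390 barcodes and 141334623 UMIs. After limits on UMIs, genes and mitochondrial share, 14908 chemoresistant and 12824 primary barcodes remained, with medians of 4634.5 and 5744 UMIs. Cells were assigned to classes by counts of marker genes, none of which is a member, and 64.0% of the chemoresistant and 66.2% of the primary barcodes received a class. Barcodes carrying at least 3 markers of more than 1 class, which could be doublets, stayed unassigned where no class dominated (1571 chemoresistant and 1408 primary barcodes). The libraries shared 52 barcode sequences, 48 of them kept. Of 29 markers held out of the rule, 24 were highest in their own class in every library with a value. The exceptions were Emx2, Cldn3, Nkain4, Ighm and Prdm1. Of these, Emx2, Cldn3 and Nkain4 were held out for tumour cells and were each exceeded in another class of the primary library. Primary tumour cells had 7.41 CPM of Emx2, against 13.2 in the highest other class, and 54.2 CPM of Nkain4, against 64.9. They had 24.6 CPM of Cldn3, against 385 in enterocytes. Bcam was the only marker held out for tumour cells that was highest there in both libraries.

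The tumour class held 2952 chemoresistant and 529 primary barcodes, with medians of 22031.5 and 31654 UMIs. Its markers (keratins, Wt1, Msln, Upk3b and others) are also those of mesothelium, the lining of the peritoneal cavity, so host mesothelial cells could not be separated from ID8 cells. Mononuclear phagocytes numbered 3223 chemoresistant and 2395 primary barcodes, B cells 2342 and 2963, neutrophils 479 and 1175, T or NK cells 146 and 647, fibroblasts 259 and 282, and dendritic cells 127 and 190. Plasma cells (122), enterocytes (116) and endothelial cells (59) reached the minimum of 50 barcodes in the primary library alone. Chemoresistant fibroblasts had 35.7 CPM of Fbn1, against 502 in primary fibroblasts, and 62.1 CPM of Mmp2, against 383. Fibroblast comparisons may therefore set different kinds of cell against each other, which was not tested.

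Tumour cells carried more respiratory chain transcripts than any other class present in both libraries. Summed over the 83 members, the tumour class had 35020 CPM (counts scaled to a total of 1e6 UMIs; interval 34978 to 35061) in the chemoresistant library and 27798 (27724 to 27872) in the primary library. The sum corresponds to 3.50% of all UMIs of the chemoresistant tumour class. In the chemoresistant and the primary library, fibroblasts had 24138 and 16869 CPM and mononuclear phagocytes 20637 and 18177 CPM. T or NK cells had 20549 and 14507 CPM, dendritic cells 18629 and 13713 CPM, neutrophils 18475 and 14714 CPM, and B cells 16008 and 13077 CPM. B cells were lowest of the 7 classes in both libraries, while the classes between them and the tumour cells changed places between the libraries. Counted per cell instead of per pool, the median share of UMIs on the members was 3.45% in chemoresistant and 2.76% in primary tumour cells, against 1.53% and 1.09% in B cells.

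**Figure D1:**
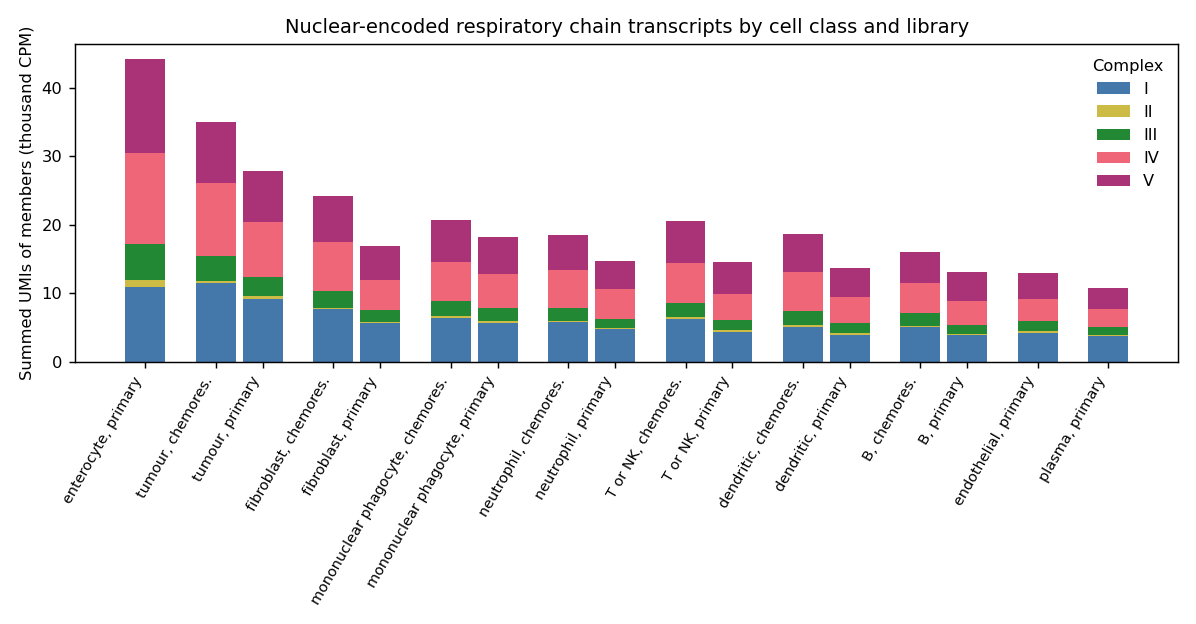
Summed UMIs of the 83 members in each class and library, in 1000 CPM on the vertical axis, stacked by complex, with the chemoresistant bar left of the primary bar. Enterocytes, endothelial and plasma cells have a primary bar only. Enterocytes (44183 CPM) and both tumour bars (35020 and 27798 CPM) are the tallest, and the chemoresistant bar is the taller of each pair.

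Enterocytes, the absorptive cells of the intestine, stood above the tumour cells. The 116 enterocytes of the primary library had 44183 CPM (43956 to 44410), against 27798 CPM in primary tumour cells. Of 78 members compared, 43 were at least 1.5-fold higher in enterocytes and 4 at least 1.5-fold lower, while 23.6% of all genes were that much higher and 47.4% that much lower. The median log2 ratio of enterocytes over tumour cells was 0.61 for the members and -0.50 for all genes. Complex II stood furthest apart, with 992 CPM in enterocytes and 336 CPM in primary tumour cells, and complex I least, with 10942 and 9191 CPM. At the other end, endothelial cells had 12923 CPM and plasma cells 10717 CPM.

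Set against single classes, the members were higher in tumour cells more often than other genes were. Over B cells, 60 of 78 members were at least 1.5-fold higher in chemoresistant tumour cells and 57 of 78 in primary ones, against 35.4% and 36.1% of all genes. None (0) was that much lower in either library, against 29.5% and 30.3% of all genes. Over mononuclear phagocytes the counts were 42 of 78 in the chemoresistant and 33 of 78 in the primary library, against 35.9% and 33.5% of all genes, with 0 and 2 lower, against 22.6% and 26.0%. Over fibroblasts they were 26 of 79 and 35 of 79, against 23.6% and 21.8%, with 2 and 1 lower, against 17.8% and 24.1%. Over neutrophils they were 60 of 79 and 51 of 78, against 40.2% and 39.6%, with 1 lower in each library, against 31.8% and 32.6%. Over dendritic cells they were 52 of 78 and 56 of 78, against 41.5% and 37.2%, with 0 lower, against 24.1% and 27.9%. Over T or NK cells they were 46 of 78 and 54 of 78, against 33.6% and 33.1%, with 0 lower, against 31.7% and 31.0%.

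Complex I gave 32.7% of the members' UMIs in chemoresistant and 33.1% in primary tumour cells, complex II 0.947% and 1.21%, complex III 10.3% and 10.1%, complex IV 30.4% and 29.2%, and complex V 25.6% and 26.4%. Ndufa4, now regarded as a subunit of complex IV, was counted in complex I. It made up 1125 of the 11442 CPM of complex I in chemoresistant and 495 of 9191 CPM in primary tumour cells. The order of complexes I and IV in chemoresistant tumour cells depends on this placing. Outside enterocytes, complex I lay between 27.4% in chemoresistant dendritic cells and 34.7% in plasma cells. The complex II share was lower in the chemoresistant library in all 7 classes, most so in fibroblasts, with 0.876% in the chemoresistant and 1.55% in the primary library. In enterocytes complex I gave 24.8% and complex II 2.25% of member UMIs. Because 3′ libraries count 1 tag for each captured molecule, the levels were not divided by gene length.

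Within a complex the transcripts were far from equal. In chemoresistant tumour cells, complex I ran between 33.5 CPM for Ndufs1, the large iron-sulphur subunit that receives electrons early in the complex, and 1306 CPM for Ndufb9, a membrane-arm accessory subunit. Complex IV ran between 24.2 CPM for Cox7a1 and 3299 CPM for Cox8a among its 12 members past 10 CPM. Complex III ran between 81.6 CPM for Uqcrc1, a large core protein, and 845 CPM for Uqcr10, a small subunit. Complex V ran between 179 CPM for Atp5k and 1491 CPM for Atp5g2, and the 4 members of complex II lay between 64.5 CPM for Sdhd and 106 CPM for Sdha. The most abundant member was the same in primary tumour cells in each complex, with 795 CPM for Ndufb9, 120 for Sdha, 665 for Uqcr10, 2127 for Cox8a and 955 for Atp5g2.

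Across the 7 classes found in both libraries, 80 members passed 10 CPM in at least 1 class. Cox7b2, Cox8b and Cox8c never did. The level averaged over the libraries on the log2 scale spanned a median of 1.28 between the highest and the lowest class. Tumour cells were highest for 63 of the 80 members, against 22.1% of the 13070 genes past the same limit. Neutrophils were lowest for 34 members, B cells for 29 and dendritic cells for 10, against 21.2%, 10.1% and 20.8% of all genes.

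The 10 members with the widest span were all highest in tumour cells. They were Cox7a1, Ndufb9 (2.49 on the log2 scale), Atp5g2 (2.35), Ndufc2 (2.23), Atp5g1 (2.11), Ndufa5 (2.02), Ndufv1 (2.01), Cox8a (2.00), Ndufb8 (1.97) and Uqcr10 (1.96). For Cox7a1 the span of 2.65 depends on the 5 CPM added before taking logs, because dendritic cells, its lowest class, had 0 chemoresistant and 3 primary UMIs. Ndufv1, the flavoprotein of complex I that oxidises NADH, had 175 CPM in chemoresistant and 172 in primary tumour cells, against 45.8 and 45.6 CPM in B cells. Ndufa5, an accessory subunit, had 205 CPM in chemoresistant and 235 in primary tumour cells, against 60.7 and 41.9 CPM in neutrophils. Ndufc2, an accessory subunit of the membrane arm, had 553 CPM in chemoresistant and 432 in primary tumour cells, against 148 and 67.6 CPM in neutrophils. Ndufb8, of the same arm, had 549 CPM in chemoresistant and 441 in primary tumour cells, against 151 and 98.9 CPM in B cells.

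Between the libraries, most members were modestly higher in chemoresistant than in primary tumour cells. Ratios were taken as log2 of chemoresistant over primary with 5 CPM added, for genes with at least 10 CPM in either library. Of 78 members tested, 64 lay above 0, 8 were at least 1.5-fold higher and 1 was at least 1.5-fold lower. The other 5 members (Cox4i2, Cox6b2, Cox7b2, Cox8b and Cox8c) were under 10 CPM in both. Among all 9112 genes tested, 4.98% were at least 1.5-fold higher and 11.5% at least 1.5-fold lower. The members' median was 0.24 and that of all genes -0.13, so the members stood a little further above the typical gene than above 0. The members' share of the library was 1.26-fold higher in chemoresistant tumour cells.

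Ndufa4 differed most. It was first assigned to complex I and is now regarded as a subunit of complex IV, and it lies on chromosome 6 at 11900292 to 11907497 on the minus strand (GRCm38). It had 1125 CPM (1118 to 1133) in chemoresistant tumour cells and 495 CPM (485 to 505) in primary ones, a log2 ratio of 1.18. In the other classes its ratio lay between 0.19 in fibroblasts and 1.11 in neutrophils. Enterocytes had 922 CPM of it.

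The next were Cox5a, Ndufb9 and Atp5l. Cox5a, a subunit of complex IV, had 487 CPM in chemoresistant and 274 CPM in primary tumour cells (0.82). Ndufb9 had 1306 and 795 CPM (0.71). Atp5l, subunit g of the membrane part of ATP synthase, had 627 and 394 CPM (0.66).

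Atp5g2 and Cox8a were already the most abundant members of their complexes. Atp5g2, on chromosome 15 at 102662864 to 102672352, had 1491 CPM in chemoresistant and 955 CPM in primary tumour cells (0.64). Cox8a, on chromosome 19 at 7215153 to 7217616, had 3299 and 2127 CPM (0.63). Uqcrh had 685 CPM in chemoresistant and 444 CPM in primary tumour cells (0.62), and Cox7a2, a subunit 7A form found in most tissues, 681 and 442 CPM (0.62). All 8 counting intervals lay clear of 0. Ndufa8, an accessory subunit of complex I, came next, just short of 1.5-fold, with 346 CPM in chemoresistant and 233 CPM in primary tumour cells (0.56).

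Cox7a1, the form of subunit 7A known from heart and skeletal muscle, was the single member at least 1.5-fold lower. It had 24.2 CPM in chemoresistant tumour cells and 39.9 CPM in primary ones, a log2 ratio of -0.62, and it fell short of 1.5-fold in 7 of 15 alternative settings. Enterocytes had 323 CPM of it. The 6 enterocyte markers summed to 34.4 CPM in chemoresistant tumour cells, with 1 of them at 0, and to 58.8 CPM in primary tumour cells, against 47620 CPM in enterocytes, and their part in the difference was not tested.

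**Figure D2:**
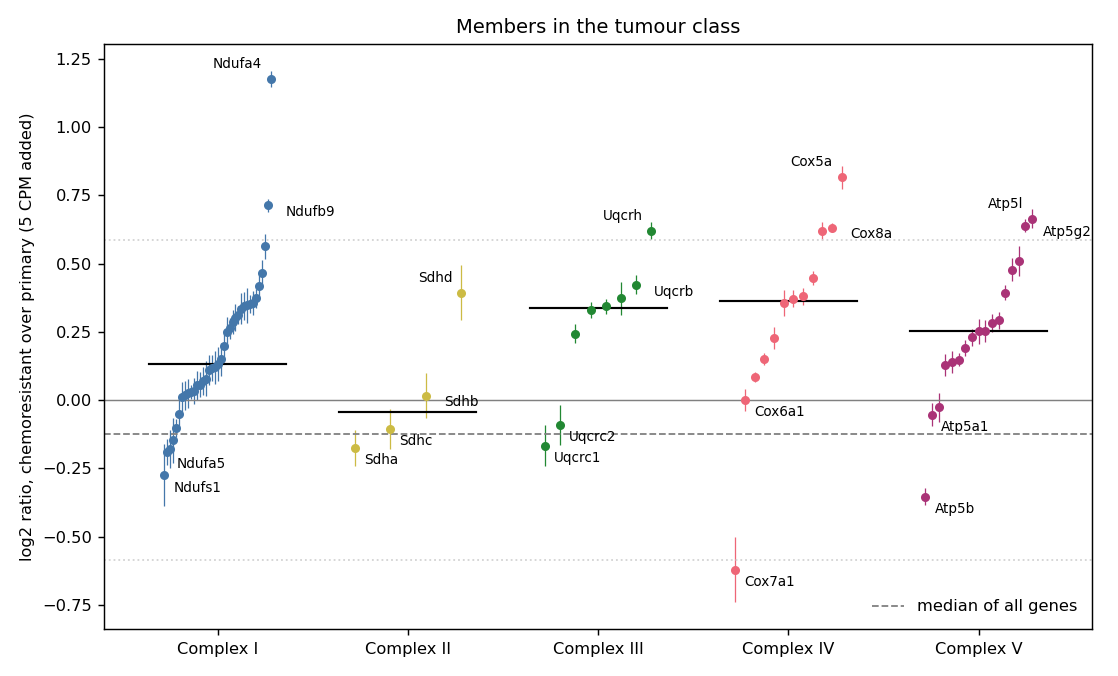
Log2 ratio of chemoresistant over primary in the tumour class (vertical axis) for the 78 members tested, by complex. Points are genes in rising order with 95% counting intervals, short bars are medians of a complex, the dashed line is the median of all genes and dotted lines mark 1.5-fold. Ndufa4 (1.18) stands highest and Cox7a1 (-0.62) lowest.

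By complex, the median ratio in tumour cells was 0.13 for complex I, -0.04 for complex II, 0.34 for complex III, 0.36 for complex IV and 0.25 for complex V. In complex I, the 7 core subunits, which carry the flavin and iron-sulphur clusters or bind them, had a median of 0.02 and the 30 accessory subunits, Ndufa4 included, 0.22. The lowest of the complex were Ndufs1 (33.5 CPM in chemoresistant and 41.6 in primary tumour cells, -0.28) and Ndufa5 (205 and 235 CPM, -0.19). Core subunit Ndufv2 (192 and 152 CPM, 0.33) lay above the accessory median, so the subunits did not divide cleanly by role.

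Complex II, which also belongs to the citric acid cycle, was the flattest. Its summed level was 332 CPM (328 to 336) in chemoresistant and 336 CPM (328 to 344) in primary tumour cells, with overlapping intervals. Sdhd, a membrane anchor, had 64.5 and 47.9 CPM (0.39), and Sdhb, the iron-sulphur subunit, 73.6 and 72.7 CPM (0.02). Sdhc, the other anchor, had 87.8 CPM in chemoresistant and 94.9 CPM in primary tumour cells (-0.11), and Sdha, the flavoprotein, 106 and 120 CPM (-0.18).

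Complex III divided by size. The 5 small subunits all lay above 0, between 0.24 for Uqcr11 and 0.62 for Uqcrh, with Uqcrb at 538 CPM in chemoresistant and 400 CPM in primary tumour cells (0.42). The Rieske iron-sulphur protein Uqcrfs1 lay at 0.37. The large core proteins had 81.6 CPM in chemoresistant and 92.2 CPM in primary tumour cells for Uqcrc1 (-0.17), and 92.8 and 99.2 CPM for Uqcrc2 (-0.09). Relative to the median of all genes (-0.13), Uqcrc2 lay slightly above and Uqcrc1 slightly below the typical gene.

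In complex IV, 11 of 12 members tested lay at or above 0, with Cox6a1 equal in the libraries (296 CPM in each). The complex V median was 0.14 for the 5 subunits of the F1 part, which holds the catalytic subunits. It was 0.39 for the 3 genes of the c ring, 0.19 for the 4 peripheral stalk subunits and 0.28 for the 5 small membrane subunits. Atp5b, the catalytic beta subunit, had 402 CPM in chemoresistant and 516 CPM in primary tumour cells (-0.35). Its partner Atp5a1, the alpha subunit, had 277 and 288 CPM (-0.05).

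The same direction was seen outside the tumour class. The summed level was higher in the chemoresistant library in all 7 classes, 1.14-fold in mononuclear phagocytes, 1.22-fold in B cells, 1.26-fold in neutrophils and tumour cells, 1.36-fold in dendritic cells, 1.42-fold in T or NK cells and 1.43-fold in fibroblasts. These are 7 classes of the same pair of libraries and no replicates of each other. Tumour-class markers moved the same way in the immune classes. The 10 markers summed to 661 CPM in chemoresistant and 122 CPM in primary neutrophils, 398 and 81.0 CPM in B cells, 295 and 74.0 CPM in T or NK cells, 224 and 72.2 CPM in phagocytes and 149 and 58.4 CPM in dendritic cells. In tumour cells themselves they summed to 6765 and 5297 CPM. At most 3 of the 10 were at 0 in any of these immune classes, and the part of tumour RNA in the members' ratios there was not tested. In fibroblasts the markers summed to 634 CPM in the chemoresistant and 631 CPM in the primary library, with the members 1.43-fold higher.

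Of 77 members tested in all 7 classes, 43 lay above 0 in every class and 2, Sdha and Uqcrc2, lay below 0 in every class. For both of these genes the ratio lay within counting error in B cells, neutrophils, dendritic cells and T or NK cells. Among the 6057 genes tested in all 7 classes, 7.54% lay above 0 and 18% below 0 in every class.

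In mononuclear phagocytes the members' median was 0.08, against -0.24 for all genes. Of 77 members, 3 were at least 1.5-fold higher and 0 lower, against 2.02% and 8.66% of all genes; the 3 were Ndufb9 (371 CPM in chemoresistant and 210 in primary phagocytes, 0.81), Atp5g2 (569 and 327 CPM, 0.79) and Cox7a2l, a supercomplex factor (0.61). In B cells the median was 0.28, against -0.08, with 5 of 77 members at least 1.5-fold higher, close to the 5.31% of all genes, and 0 lower, against 8.70%. They were Ndufb9 (240 CPM in chemoresistant and 130 in primary B cells), Uqcrb, Ndufa6, Ndufa4 and Ndufb8. Atp5b was lower in chemoresistant B cells, with 180 CPM against 263 CPM in primary ones (-0.54).

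The fibroblast median was 0.39, against -0.24 for all genes, with 18 of 79 members at least 1.5-fold higher and 1 lower, against 10.5% and 29.1% of all genes. Ndufb9 had 652 CPM in chemoresistant and 279 CPM in primary fibroblasts (1.21), and Cox8a 1522 and 671 CPM (1.18). The dendritic median was 0.34, against -0.28, with 17 of 77 members higher and 1, Ndufa10, lower, against 6.99% and 28.7% of all genes. Atp5g2 had 667 CPM in chemoresistant and 311 CPM in primary dendritic cells (1.09).

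Neutrophils and T or NK cells rested on few UMIs, and many of their single-gene differences lie near counting error. The median half-width of a member's counting interval on the log2 scale was 0.34 in neutrophils, 0.37 in T or NK cells and 0.31 in dendritic cells, against 0.04 in tumour cells. In neutrophils the members' median was 0.24, against -0.11 for all genes, with 15 of 78 members at least 1.5-fold higher and 2 (Sdhb and Uqcrc2) lower, against 11.4% and 17.9% of all genes. In T or NK cells it was 0.44, against -0.08, with 24 of 78 higher and 0 lower, against 13.7% and 20.4%. The highest in each of these classes, Cox6b2 in neutrophils (5 UMIs in each library) and Cox7a1 in T or NK cells (4 chemoresistant and 6 primary UMIs), passed the level limit through the shallow chemoresistant library. The ratio was larger than its counting half-width for 13 of the 15 higher and 1 of the 2 lower members in neutrophils, and for 23 of the 24 in T or NK cells.

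Ndufb9 was the only member at least 1.5-fold higher in all 7 classes, with ratios between 0.60 and 1.21, as were 0.281% of all genes. It is also among the members highest in tumour cells, whose markers were higher in the chemoresistant library in the 5 immune classes, as given above. Its neutrophil level was 518 CPM in the chemoresistant and 340 CPM in the primary library. Ndufa4 and Atp5g2 were that much higher in 5 classes each, and Uqcr10, Cox8a, Cox5a, Ndufa6 and Ndufb8 in 4 each. Sdha lay between -0.45 in fibroblasts and -0.00 in B cells, and Uqcrc2 between -0.82 in neutrophils and -0.01 in B cells.

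**Figure D3:**
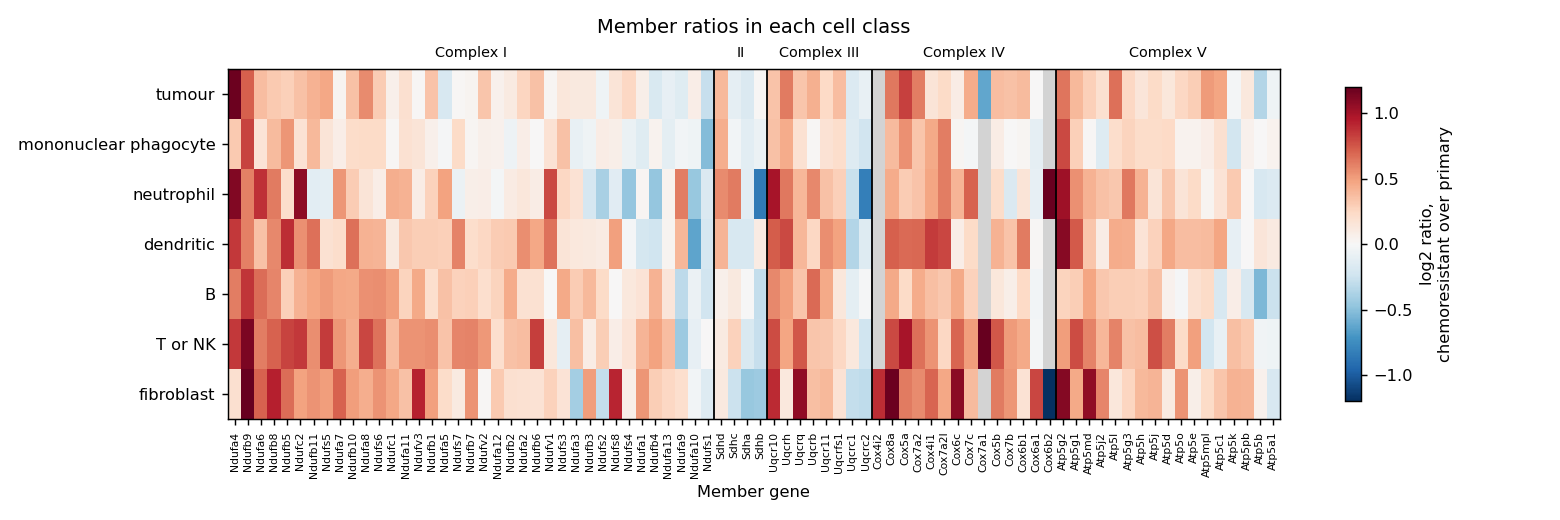
Log2 ratio of chemoresistant over primary for each member (columns, grouped by complex and ordered by their median) in each of 7 classes (rows). Red is higher in the chemoresistant library, blue is lower, the scale is capped at its ends and grey marks members under 10 CPM in both libraries. Ndufb9 is red in all rows, and Sdha, Sdhb, Uqcrc1, Uqcrc2, Atp5b and Atp5a1 are pale or blue in most, while Sdhd of complex II lies above 0 in all 7.

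In tumour cells the ratio moved with the length of the coding sequence, among members and among all genes. Coding lengths were those of the longest annotated coding sequence. In tumour cells, members of up to 500 nucleotides had a median ratio of 0.29 (48 genes), those of 501 to 1000 nucleotides 0.25 (18 genes) and longer ones -0.09 (11 genes). All genes tested had medians of 0.26, 0.05 and -0.22 in the same bins. Short members thus stood close to other short genes, and members of the other bins stood above all genes of the same bin. The longest bin has no upper limit, and its members ended at 2181 nucleotides (Ndufs1). All genes in deciles with median lengths of 1242 and 1491 nucleotides had median ratios of -0.10 and -0.18. The gap in that bin is therefore not a comparison of like lengths.

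Spearman's rho between ratio and coding length in tumour cells was -0.36 over 77 members and -0.45 over 8828 genes, as a description across genes of the same pair of libraries. Of the 11 members over 1000 nucleotides, 3 lay above 0, while 43 of the 48 up to 500 nucleotides did. Most of all genes in the shortest decile of coding length also lay above 0, and most in the longest below 0 (medians of 0.26 and -0.35). The direction is therefore not particular to the members. In mononuclear phagocytes rho was -0.00 over the members and -0.55 over all genes, and in dendritic cells -0.17 and -0.44, closer to 0 over the members in both classes. In B cells it was -0.48 and -0.36, and in T or NK cells -0.42 and -0.28. Members' ratios also ran with their level (rho 0.55 in tumour cells), and short members were the more abundant (rho -0.46), so length, level and role in a complex cannot be told apart here.

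**Figure D4:**
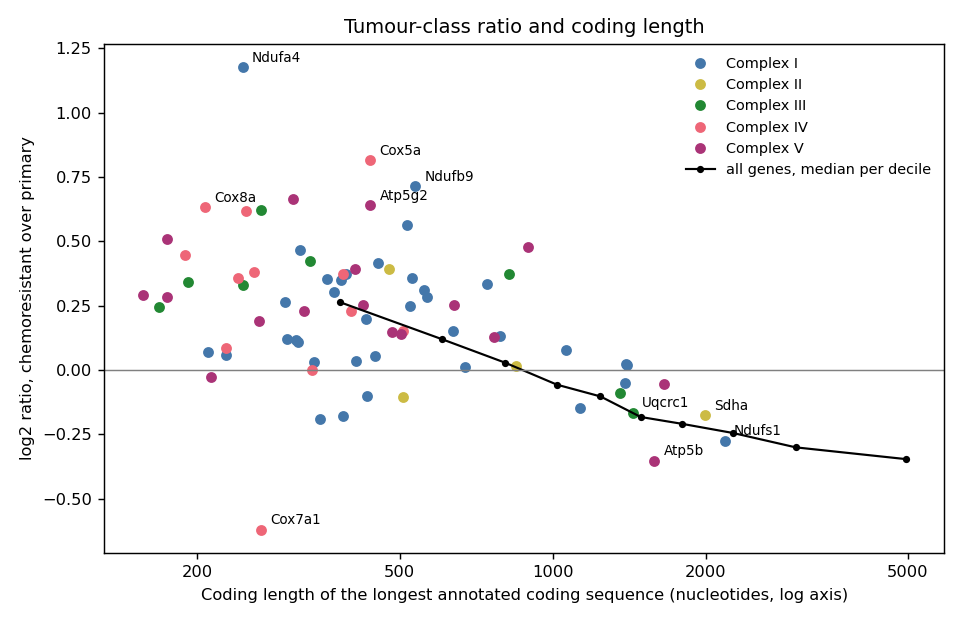
Log2 ratio of chemoresistant over primary in tumour cells (vertical axis) against coding length in nucleotides (log axis). Coloured points are members by complex, and the black line joins the medians of all genes in deciles of length. The line falls through the range, with medians of 0.26 in the shortest decile and -0.35 in the longest, and most members lie at its short end.

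Other gene lists put the members' difference in context. Among all genes tested in tumour cells, 4.98% were at least 1.5-fold higher and 11.5% at least 1.5-fold lower. Genes of the cytosolic ribosome, which are also short and abundant, had a tumour median of 0.47, with 17 of 83 at least 1.5-fold higher and 0 lower. Mitochondrial ribosome genes had 0.24 (4 of 76 higher, 0 lower), and genes of mitochondrial import 0.23 (2 of 23 higher, 0 lower). Assembly factors of the complexes had 0.14, with Sco2, a copper chaperone of complex IV, the single one of 36 at least 1.5-fold higher (56.7 CPM in chemoresistant and 30.7 in primary tumour cells). Citric acid cycle genes had -0.09 (0 of 16 higher, 1 lower), the lower one being Fh1, fumarate hydratase, with 30.9 and 50.9 CPM. Electron carriers had 0.19 (0 of 9 past 1.5-fold), with Cycs, cytochrome c, at 171 CPM in chemoresistant and 141 CPM in primary tumour cells. Regulators of mitochondrial biogenesis had -0.16, with 0 of 10 past 1.5-fold, and the coactivator Ppargc1a had 16.3 and 16.2 CPM.

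The mitochondrially encoded partners went the other way in tumour cells. All 13 protein genes of mitochondrial DNA lay below 0, with a median of -0.49. Of these, 4 were at least 1.5-fold lower (mt-Nd2, mt-Nd4l, mt-Nd5 and mt-Atp8), against 11.5% of all genes tested. The catalytic subunit mt-Co1 had 8256 CPM in chemoresistant and 11968 CPM in primary tumour cells. Per nuclear complex IV UMI, with Ndufa4 counted in complex I, there were 2.06 mitochondrial ones in chemoresistant and 3.69 in primary tumour cells. The values were 0.524 and 0.904 for complex I, 1.32 and 2.10 for complex III, and 0.982 and 1.68 for complex V.

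This was not so in every class. The median of the 13 genes was -0.53 in mononuclear phagocytes and -0.95 in dendritic cells, but 0.19 in B cells and 0.06 in fibroblasts. Neutrophils had a median of -0.18 and T or NK cells of -0.08. The complex IV ratio was nonetheless lower in the chemoresistant library in all 7 classes, least so in B cells (3.65, against 4.01 in primary B cells). The limit of 20% mitochondrial UMIs concerned 427 chemoresistant and 1483 primary barcodes. Malat1 is a nuclear RNA whose share may reflect, among other things, how much cytoplasmic RNA a barcode kept. It had 12401 CPM in chemoresistant and 14899 CPM in primary tumour cells, and 4772 and 9689 CPM in phagocytes. It was lower in the chemoresistant library in the other 5 classes too, with 18916 and 39535 CPM in dendritic cells, 15405 and 24720 CPM in neutrophils, 9358 and 14171 CPM in T or NK cells, 9753 and 12061 CPM in B cells and 9745 and 13065 CPM in fibroblasts. The part of these in the members' ratios was not tested.

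**Figure D5:**
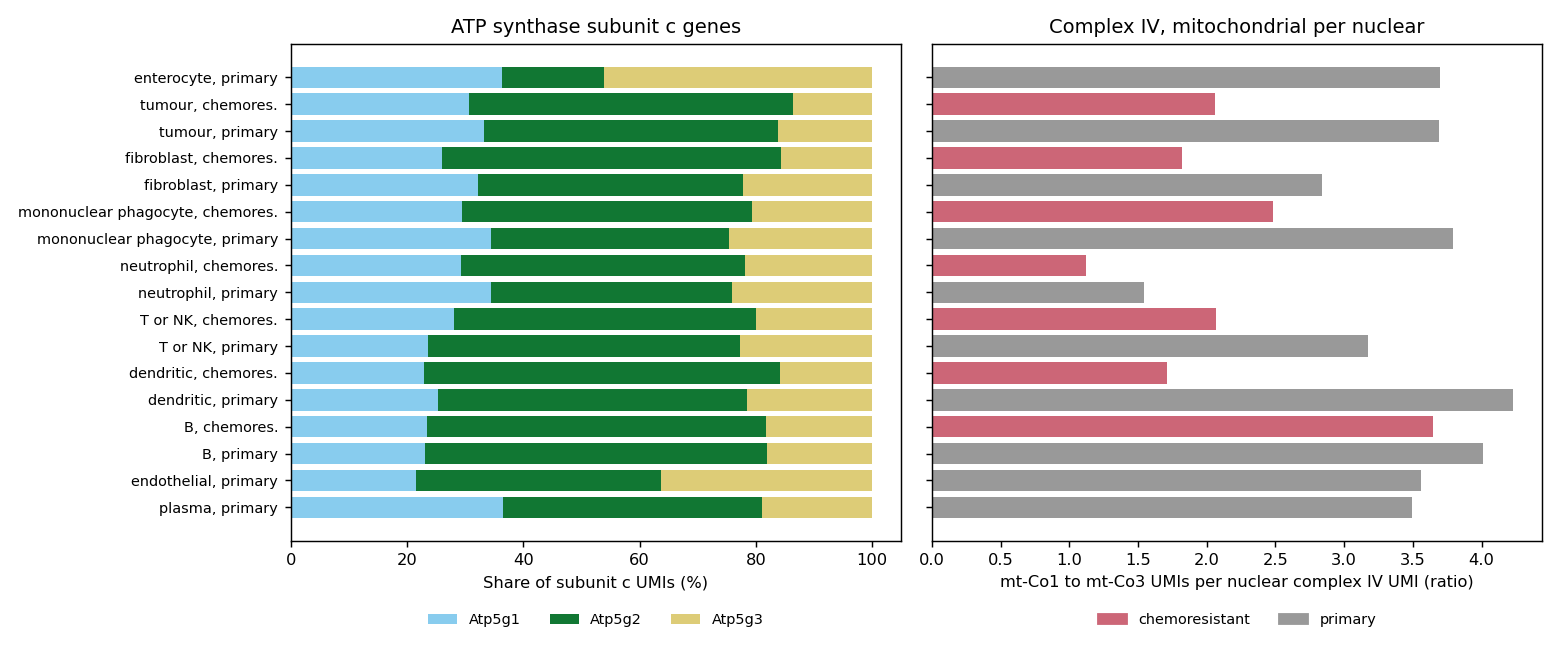
Left, share of subunit c UMIs (%) from Atp5g1, Atp5g2 and Atp5g3 in each class and library. Right, UMIs of mt-Co1 to mt-Co3 per UMI of the nuclear complex IV members. Atp5g2 gives the largest share everywhere except in enterocytes (17.5%), and the complex IV ratio is lower in the chemoresistant library in each pair, as in tumour cells (2.06 and 3.69).

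Some subunits are encoded by alternative genes whose use differs among tissues. The 3 genes of subunit c encode the same mature protein behind different import sequences. In tumour cells Atp5g2 gave 55.6% (55.4 to 55.8%) of subunit c UMIs in the chemoresistant and 50.6% (50.1 to 51.1%) in the primary library, and Atp5g3 13.7% and 16.3%. In phagocytes Atp5g2 gave 49.8% and 41.0%, and in fibroblasts 58.2% and 45.6%. In B cells it gave 58.2% in the chemoresistant and 58.8% in the primary library, with overlapping intervals. Enterocytes used Atp5g3 most (46.2%) and Atp5g2 least (17.5%, 16.6 to 18.4%).

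Cox7a1 gave 3.43% (3.28 to 3.59%) of the UMIs of the Cox7a1 and Cox7a2 pair in chemoresistant and 8.28% (7.73 to 8.85%) in primary tumour cells, and 22.1% in enterocytes. It stayed at or under 3.01% in every other class. Cox6b2, the testis form of subunit 6B, gave 0.740% in chemoresistant and 0.351% in primary tumour cells. In fibroblasts it gave 0.476% (8 UMIs) in the chemoresistant and 6.73% (120 UMIs) in the primary library, the lowest ratio of any member (-2.18). Cox4i2, the lung form of subunit 4, reached 14.6 CPM in chemoresistant and 5.60 CPM in primary fibroblasts and 1.78% of subunit 4 in plasma cells, but 0.0226% and 0.0351% in tumour cells. Cox8b, the muscle form of subunit 8 in the mouse, had 0 to 2 UMIs in each class with a level here. Over all kept barcodes it had 5 UMIs in the chemoresistant and 150 in the primary library, most of the latter outside these classes.

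Tumour barcodes were also split by a UMI of Mki67, Top2a or Cdk1, genes of dividing cells. Chemoresistant barcodes with such a UMI had 35236 CPM of the members and those without 34896 CPM, and in the primary library the values were 28664 and 27229 CPM. The split followed depth, with medians of 33598 UMIs with and 18588 without in the chemoresistant library, and 47259 and 25995 in the primary library, so dividing cells and deeper barcodes cannot be told apart here.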

How the data were processed

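UMI counts per gene and barcode were deposited by the authors as whole numbers, from Cell Ranger (8.0.1, per the file headers) on mm10, a build named in the submitters' processing notes, with an annotation not given in the sources used here. Libraries used 3′ v3 chemistry per the labels' protocols. Barcodes were kept with at least 500 UMIs, 250 genes and at most 20% mitochondrial UMIs. A barcode took a class when at least 3 of its markers had a UMI and made up at least 80% of all marker UMIs. Counts were summed by class and library (at least 50 barcodes for a level, 100 in both libraries for a ratio) and given as CPM with exact Poisson intervals. Shares have Clopper-Pearson intervals. No test was run, because each condition is 1 library. Gene positions and coding lengths were taken from GENCODE vM21 (GRCm38, the build of mm10) for 98.7% of tested members in tumour cells. Reads shared with processed pseudogenes could not be assessed, and Cox5b-ps had 17.9 CPM in chemoresistant and 12.7 CPM in primary tumour cells. Named genes were the 2 highest and 2 lowest of each complex in tumour cells, all past 1.5-fold there, the 10 widest across classes, the paralogue pairs and the most abundant of each complex; others were named after their values were seen, and so were the coding-length bins and promoter words chosen. Members and lists were chosen with earlier results of these data known. S6 kinases caught by the pattern for ribosomal genes were dropped, and Coq8 was not found. Scripts used Python 3.11.15, numpy 2.4.6 and scanpy, and were tested on simulated data.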

Additional observations from a re-analysis of the deposited data

How the results depend on the processing

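No paired analysis was possible because each condition is 1 library, and for the same reason no replicate could be left out. Alternatives were run for the class medians, the tumour counts past 1.5-fold, the summed level of tumour cells over phagocytes and the Atp5g2 share, and no median or ratio among these changed sign. Beyond the members behind those counts, single members, complex medians and the other gene lists were not reported under them. The tumour median log2 ratio of 0.24 was 0.166 with the looser class rule, 0.307 with mitochondrial, ribosomal and immunoglobulin UMIs left out of the total and 0.361 after centring on all genes. The number of members at least 1.5-fold higher in tumour cells stayed between 6 and 12. The number at least 1.5-fold lower was 0, not 1, as a mean over cells, after thinning to 1000 UMIs, with the looser rule, without cycling cells, with the reduced total, after centring and with 20 CPM added. The phagocyte median was 0.154 after thinning, 0.134 with the reduced total and 0.315 after centring. The B cell median was 0.410 as a mean over cells and 0.413 after thinning, and the fibroblast median 0.532 with the reduced total and 0.623 after centring. Over the main and 14 alternative settings, the neutrophil median lay between 0.0996 and 0.344 and the dendritic median between 0.252 and 0.624. The T or NK median lay between 0.392 and 0.528. The log2 ratio of the summed level in tumour cells over phagocytes was 0.763 in the chemoresistant and 0.613 in the primary library. As a mean over cells it was 0.787 and 0.681, after thinning 0.780 and 0.664, without the mitochondrial limit 0.757 and 0.595, with at least 1% mitochondrial UMIs 0.753 and 0.604, with the stricter class rule 0.774 and 0.625, with the looser 0.737 and 0.630, without Scrublet doublets 0.757 and 0.600, and with the reduced total 0.853 and 0.688. The Atp5g2 share in chemoresistant tumour cells was 54.6% as a mean over cells, 56.3% with the stricter and 55.2% with the looser rule, and in primary ones 49.7% both as a mean over cells and with the looser rule. Leaving out barcodes shared by the libraries was added after seeing the data. Values moved with scaling and class rule by more than counting error, which is small in the deep classes; the cause was not tested. Depth limits single members in neutrophils, dendritic and T or NK cells.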
